A study of Mus musculus with 11 samples.

Results

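The 10 genes described here, Myc, Mycl, Mycn, Max, Mga, Mnt, Mxd3, Mxd4, Mxi1 and Mlx, encode members of the MYC, MAX and MXD network. They were chosen by name from 35056 genes to which the deposited transcript estimates could be summed, and all 10 passed the filter on low counts. The RNA came from KP1, a cell line grown in suspension from a small cell lung cancer (SCLC) of a mouse with mutant Rb and p53. Bulk RNA sequencing covered 2 libraries of untreated cells (controls, replicates 2 and 3) and 3 libraries of cells irradiated with 5 Gy (replicates 1, 2 and 3), with all pellets collected at 24 h. The comparison asks what radiation changes in the cancer cells themselves, in culture and away from other cells. All libraries are of 1 line, and nothing in the labels says whether replicates were separate cultures, so the p-values measure the spread between these libraries, which may be technical. The single-cell samples of the series were not analysed here.

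MYC proteins do not bind DNA alone. They pair with MAX, and the pair binds the E-box, a short palindromic site, and activates genes of growth, ribosome production and metabolism. The MXD proteins (encoded by Mxd1, Mxi1, Mxd3 and Mxd4), MNT and MGA also pair with MAX at E-boxes and repress, so that they compete with MYC for partner and site. MLX is a second hub, which pairs with MNT, some MXD proteins and the glucose-sensing factors MondoA (Mlxip) and ChREBP (Mlxipl). In SCLC a MYC family gene is often amplified or highly expressed, and Mycl is the family member best known from the neuroendocrine form.

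The E-box CACGTG reads the same on both strands. It occurred in 4 of 11 RefSeq promoters of 9 network genes, against 2349 of 32851 promoters (7.15%) among all those listed. Windows ran from 250 bases before to 50 bases after the annotated start (GRCm38.p6). Of the 11 promoters, 3 were of Mxi1, some of them overlapping, and none was of Myc. The windows of Mycl, Mycn, Mga, Mxd3 and Mxi1 held no such letters. The stretches below show the motif, in capitals, with 12 bases on either side, on the strand of the gene.

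Max, chr12:76962234-76962263, minus strand: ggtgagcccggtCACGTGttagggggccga
Mlx, chr11:101087238-101087267, plus strand: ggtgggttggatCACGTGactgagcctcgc
Mnt, chr11:74830789-74830818, plus strand: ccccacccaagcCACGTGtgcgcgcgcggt
Mxd4, chr5:34187912-34187941, minus strand: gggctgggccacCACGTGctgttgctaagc

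In these windows the first base of the motif lay 3 bases before the start of Max, 40 before Mlx, 123 before Mnt and 219 before Mxd4. A match describes letters, and binding was not measured here.

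The libraries held 31036317 and 26432466 estimated reads in control replicates 2 and 3, and 24469945, 21185956 and 27243557 in irradiated replicates 1, 2 and 3. The groups also differed in the length of the transcripts that the reads came from, a difference that can touch the results below. Averaged over reads, a transcript was 5463 and 4729 bases long in the controls, and 3715, 3625 and 3998 bases long in the irradiated libraries. CPM are reads scaled by the library total, here adjusted by TMM, a factor that sets libraries on a common scale. On the first principal component of log2 CPM, which held 61.65% of the variance, control replicate 2 lay at −86.9, apart from control replicate 3 at −31.4. The irradiated libraries lay at 49.9, 48 and 20.4.

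Neuroendocrine markers were expressed in every library. The 7 neuroendocrine markers summed to 2582 and 2723 TPM (a level scaled for transcript length and to the same total in every library) in the controls and 2659, 2718 and 2526 TPM in irradiated cells. The sum hid changes in both directions. Ncam1, an adhesion molecule, had 354 and 153 TPM against 78.0, 46.7 and 84.0 TPM and was lower (log2 fold change −1.20, adjusted p = 0.0227 with edgeR). Uchl1, a neuronal ubiquitin hydrolase (1.14, adjusted p = 0.0229), Calca, a neuropeptide gene (1.18, adjusted p = 0.0474), and Syp, a synaptic vesicle protein (0.64, adjusted p = 0.0315), were higher in edgeR, and the other 3 markers did not pass. None of the 7 was called by edgeR with the length offset described below. The 5 markers of non-neuroendocrine SCLC summed to 22.0 to 29.5 TPM, mostly Vim. Macrophage markers were near 0, with Adgre1 and Csf1r at 0 reads outside irradiated replicate 2, where they had 2 reads and 1 read, and Cd68 the most abundant at 0.992 to 6.62 TPM. Of the 4 fibroblast markers, Pdgfra made up most of the summed 36.7 to 67.3 TPM and Dcn had 0 reads outside irradiated replicate 1, where it had 3.

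Mycl was by far the dominant gene of the network. Its level was 3569 and 3837 TPM in the controls and 4828, 4184 and 5047 TPM in irradiated cells. It ranked 10 among all 35056 genes by mean TPM and 9 among 21830 protein-coding genes. Mycl alone gave 99.4% to 99.6% of the summed TPM of Mycl, Mycn and Myc in each library. It took 0.491% and 0.545% of all matched reads in the controls and 0.932%, 0.851% and 0.895% in the irradiated libraries, and these groups did not overlap.

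**Figure D1:**
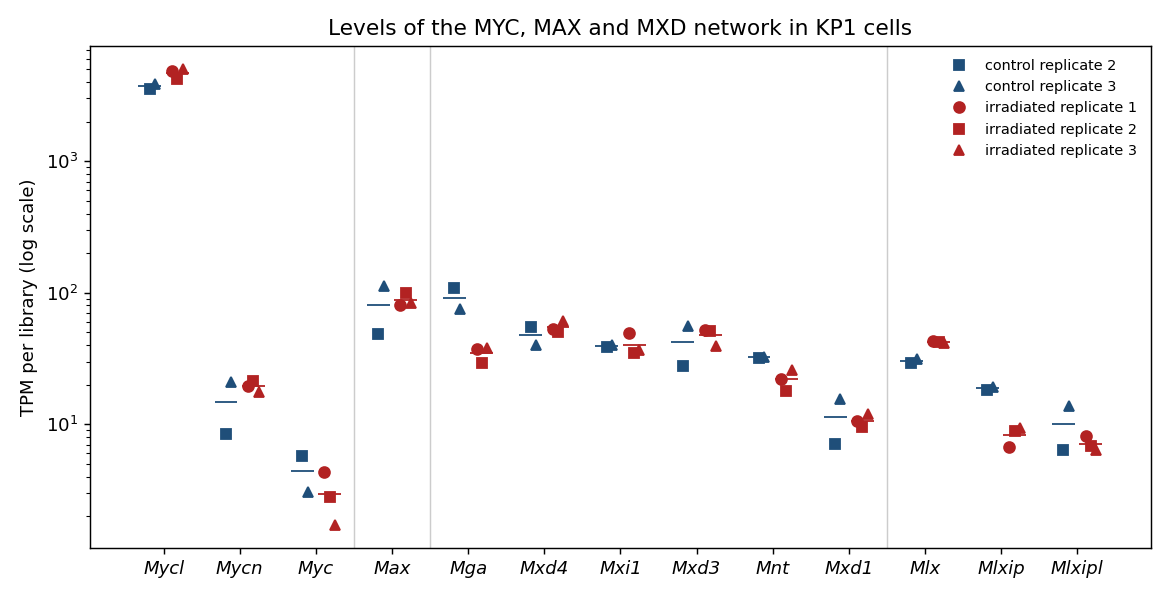
TPM of each gene (log scale) in each of the 5 libraries, by role from left to right: MYC family, MAX, antagonists, and MLX with its partners. Symbols mark libraries and short lines the group means. Mycl stands at 3569 to 5047 TPM, while the highest value of any other gene is 112.5 TPM, for Max in control replicate 3.

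The other genes lay more than an order of magnitude below Mycl. In the controls the mean level was 91.4 TPM ± 23.4 for Mga, 80.5 ± 45.2 for Max, 47.6 ± 10.7 for Mxd4, 42.0 ± 20.2 for Mxd3 and 39.4 ± 0.739 for Mxi1 (SD, n = 2), and the ranges of neighbours in this order overlapped. Below them, with ranges that did not overlap their neighbours', stood Mnt at 32.3 ± 0.225, Mlx at 30.1 ± 1.47, Mycn at 14.7 ± 8.75 and Myc at 4.41 ± 1.91 TPM. In irradiated cells the order was Mycl at 4686 ± 449, Max at 88.2 ± 10.4, Mxd4 at 55.1 ± 5.58, Mxd3 at 47.6 ± 7.24, Mlx at 42.4 ± 0.521, Mxi1 at 40.4 ± 7.86, Mga at 34.8 ± 4.84, Mnt at 22.0 ± 3.96, Mycn at 19.5 ± 1.95 and Myc at 2.96 ± 1.33 TPM (SD, n = 3). Max stood apart from Mxd4 in this order, Mga from Mnt and Mycn from Myc, and the other neighbours below Mycl overlapped. By mean TPM, Mga thus led the controls after Mycl and came after 5 of the remaining genes in irradiated cells.

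Of the 10 genes, the quasi-likelihood test of edgeR, with p-values adjusted (Benjamini-Hochberg) over 14106 genes, called Mycl, Max and Mlx higher and Mga lower in irradiated cells at an adjusted p under 0.05. Among all genes tested, 12.7% were called higher and 13% lower, 25.6% in either direction. With 3 higher and 1 lower of 10, the direction higher was above that background and the direction lower was close to it, on counts too small to say more. The median log2 fold change was 0.44 over the 10 genes and 0.02 over all genes. None of the 10 also passed a log2 fold change of 1.5 in either direction with edgeR, a bar that 1.63% of all genes passed upwards and 1.9% downwards. The count stayed 0 with DESeq2 and with limma. In bulk RNA, fewer cells of a kind and less RNA per cell cannot be told apart.

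The change of a gene went with its transcript length across all genes, so the values of the network genes below are given with that trend beside them. When all genes were cut into 10 equal classes by length, the class of 81 to 1020 bases had a median log2 fold change of 0.77 and the class of 5265.9 to 123179 bases one of −0.78. The median of a gene's own length class is given below as that of genes of similar length. An offset that removes any trend with transcript length, technical or biological, left 4.25% of all genes called higher and 3.64% lower. Under that offset edgeR called Mycl, Mxd4 and Mxi1 higher and none of the 10 genes lower, and the median over the 10 was 0.35.

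**Figure D2:**
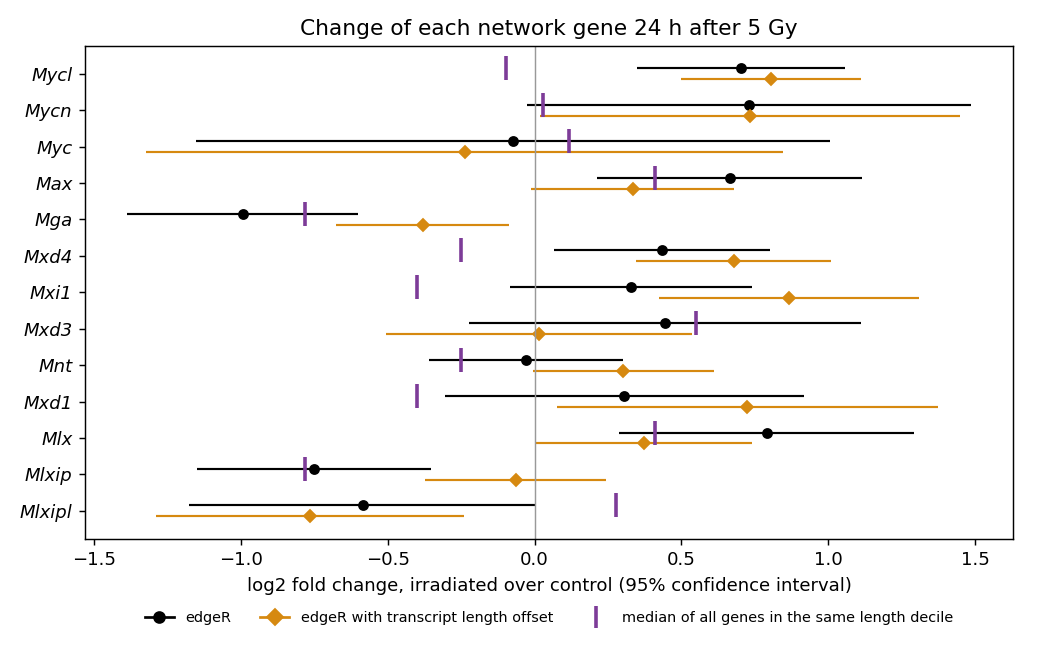
log2 fold change, irradiated over control, of the 10 network genes with Mxd1, Mlxip and Mlxipl, with 95% confidence intervals from edgeR without (circles) and with (diamonds) the transcript length offset. Vertical bars give the median of all genes in the same length class (of 10) in the fit without the offset. In that fit Mycl lies above its bar, while Mga lies close to its own at −0.78. Values with the offset have the length trend removed and are not to be read against the bars.

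Mycl, on the plus strand at chr4:122995652-123002485 (GRCm38), was 1.63 times as high in irradiated cells. Its reads numbered 152137 and 143797 in the controls and 227702, 180178 and 243505 in the irradiated libraries. Scaled by library size (TMM, which sets libraries on a common scale), these were 5327 and 5397 CPM against 9068, 8229 and 8869 CPM. All 3 irradiated libraries lay above both controls, on the scale of CPM as on that of TPM. The log2 fold change was 0.70 (SE 0.16, 95% confidence interval 0.35 to 1.06, adjusted p = 0.0166 with edgeR), and with the length offset it was 0.81 (adjusted p = 0.0237 with edgeR). Genes of similar length had a median of −0.10. The direction was positive under all 18 alternatives, and 12 of them kept the call. Among those that did not were log2 TPM with limma (0.34, adjusted p = 0.392), the GC offset (adjusted p = 0.0502), and edgeR without control replicate 2 (adjusted p = 0.0785) or without irradiated replicate 1 (adjusted p = 0.0571).

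Values on the TPM scale were shifted downwards against scaled counts. On log2 TPM the median of all tested genes lay at −0.27, and limma called 717 genes higher and 2681 lower (21.1% of calls higher) where edgeR on counts called 1786 and 1827 (49.43% higher). The change of Mycl on that scale, 0.34, therefore stands against a median of −0.27, and that of Mga, −1.37, against the same value.

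Mycn, the family member of neural progenitors and neuroblastoma, lies at chr12:12936093-12941914 on the minus strand. Its level was 8.51 and 20.9 TPM in the controls and 19.5, 21.4 and 17.5 TPM in irradiated cells. Control replicate 2 was the lowest library, and control replicate 3 lay among the irradiated libraries, so the groups overlapped in TPM. In CPM Mycn had 10.9 and 25.4 against 30.3, 34.3 and 25.8, and all irradiated libraries lay above both controls. Its log2 fold change was 0.73 (95% confidence interval −0.03 to 1.49, adjusted p = 0.133 with edgeR). Its size turned on the controls: without control replicate 3 it was 1.49 (adjusted p = 0.00739 with edgeR), and without control replicate 2 it was 0.26 (adjusted p = 0.502 with edgeR). Genes of similar length had a median of 0.03, and with the length offset Mycn had 0.73 (adjusted p = 0.154 with edgeR).

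Myc, at chr15:61985391-61990374 on the plus strand, was the lowest of the 10 genes. Its reads numbered 146 and 81 in the controls and 144, 84 and 57 in irradiated cells, or 5.76, 3.06, 4.36, 2.79 and 1.72 TPM in the same order. The groups overlapped. Its change of −0.07 (log2) had a confidence interval from −1.15 to 1.01 (adjusted p = 0.924 with edgeR), which spans a factor of 2 in either direction. Genes of similar length had a median of 0.12, and the length offset gave −0.24 (adjusted p = 0.764 with edgeR). The estimates covered 7 of the 8 transcripts annotated for Myc.

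Summed over the MYC family, the level was 3583 and 3861 TPM in the controls and 4852, 4208 and 5067 TPM in irradiated cells, a log2 ratio of the means of 0.34, which reflects Mycl.

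The annotated transcripts of Mycl went in both directions. Both long coding transcripts carried most of the signal: Mycl-202 (3293 bases) had a mean of 1606 TPM in the controls and 2360 TPM in irradiated cells, and Mycl-201 (3501 bases) had 1506 and 1844 TPM. The groups did not overlap for Mycl-202 and overlapped for Mycl-201. Mycl-205, a processed transcript of 670 bases at chr4:122999339-123000517, went the other way. It was estimated at 260 and 326 TPM in the controls and at 25.1, 32.9 and 66.9 TPM in irradiated cells, and here all irradiated libraries were lower. The ratio of its means was 0.142. Mycl-205 lies within the span of Mycl-201 and Mycl-202, Salmon's split of reads between transcripts is an estimate, and no test was run on transcripts.

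**Figure D3:**
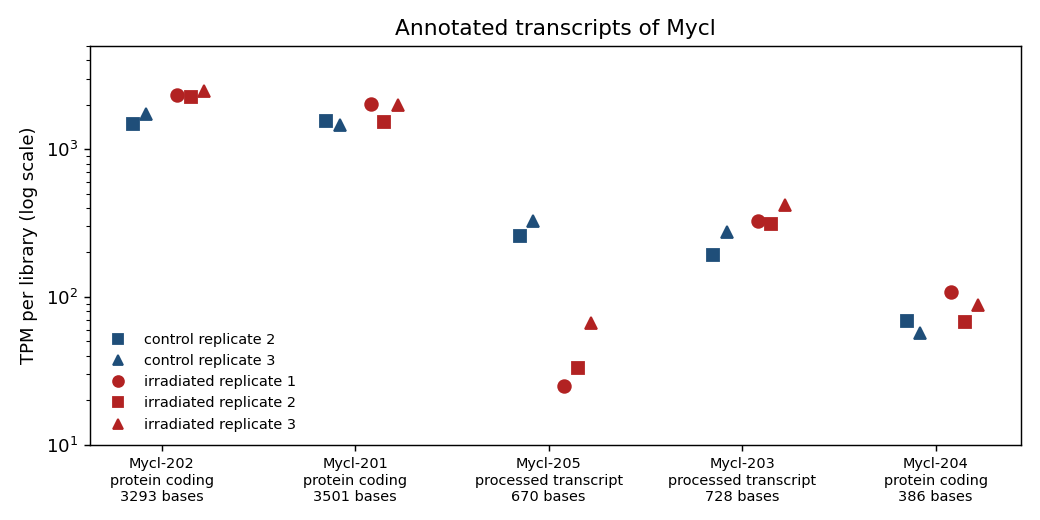
TPM (log scale) of the 5 annotated Mycl transcripts in the 2 control (blue) and 3 irradiated (red) libraries, with transcript type and length under each name. Mycl-202 and Mycl-203 lie higher in irradiated cells and Mycl-205 lies lower, without overlap of the groups.

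Genes around Mycl ranged from among the highest in the libraries to 0. This stretch was chosen after its values had been seen, and no test was run on it. It holds 16 protein-coding genes reaching within 500 kb of Mycl, itself included. Cap1, which encodes a protein of actin turnover and whose start lies at −109.6 kb from that of Mycl, had 7962 TPM ± 1411 in the controls (SD, n = 2) and 6589 ± 917 in irradiated cells (SD, n = 3), and it ranked 4 among all genes. Ppie, a peptidyl-prolyl isomerase of the spliceosome, had 2090 ± 340 and 3357 ± 343 TPM. Trit1, a tRNA-modifying enzyme and the next protein-coding gene after Mycl, had 885 ± 254 and 924 ± 52.5 TPM. Other genes in the stretch, among them Heyl and Nt5c1a, had 0 TPM in all 5 libraries. The number of DNA copies was not measured here.

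The expressed neighbours of Mycl were called higher, lower or not at all. Ppie was higher (log2 fold change 1.04, SE 0.19, adjusted p = 0.0110 with edgeR). Cap1 had 0.03 (adjusted p = 0.916) and Trit1 0.51 (adjusted p = 0.0801), and neither passed the test of edgeR. Macf1, a long cytoskeletal crosslinker gene, was lower at −1.45 (adjusted p = 0.00919 with edgeR). Genes as long as Ppie had a median of 0.55 and those as long as Macf1 −0.78, and with the length offset Ppie had 0.52 (adjusted p = 0.0493) and Macf1 −0.79 (adjusted p = 0.0392), both from edgeR. Whether these changes differ from that of Mycl was not tested.

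**Figure D4:**
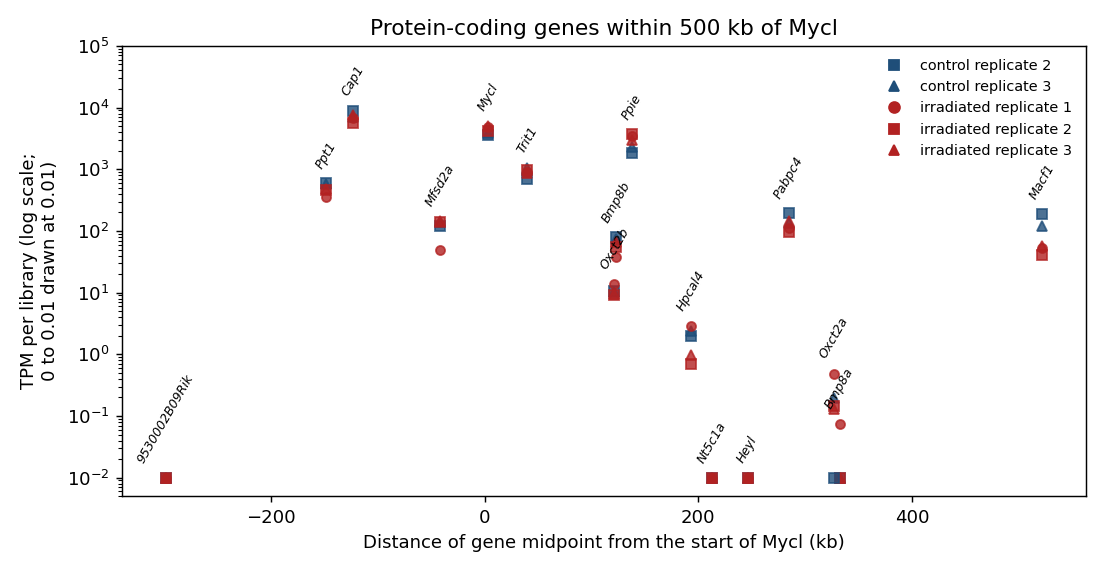
TPM per library (log scale, values of 0 to 0.01 drawn at 0.01) of the 16 protein-coding genes reaching within 500 kb of Mycl, by the distance of the gene's midpoint from the start of Mycl in kb. Cap1, Mycl, Trit1 and Ppie stand highest, and 3 genes lie at 0 in every library.

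Max, the shared partner, lies at chr12:76937269-76962201 on the minus strand. It had 1233 and 1645 reads in the controls and 1878, 2071 and 2196 in irradiated cells, or 43.2, 61.7, 74.8, 94.6 and 80.0 CPM. In CPM all irradiated libraries lay above both controls. The log2 fold change was 0.66 (SE 0.20, 95% confidence interval 0.21 to 1.11, adjusted p = 0.0410 with edgeR). In TPM the groups overlapped, at 48.5 and 112 against 81.3, 100 and 83.3. Of the 112 TPM of control replicate 3, 34.6 TPM came from 18 reads on Max-206, a transcript of 203 bases with a high TPM per read. Genes of similar length had a median of 0.41, and with the length offset Max had 0.33 (adjusted p = 0.173 with edgeR). The call was also lost with effective length offsets, with limma on log2 TPM, and on leaving out control replicate 2 or any of irradiated replicates 1, 2 and 3 (adjusted p 0.0640 to 0.214 with edgeR), and only 9 of 18 alternatives kept it.

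The ratio of MYC family TPM to Max TPM was 73.9 and 34.3 in the controls and 59.7, 42.0 and 60.8 in irradiated cells, so the groups overlapped.

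Mga encodes the largest protein of the network, a repressor that binds DNA with MAX and also through a T-box domain and forms the core of a Polycomb complex, PRC1.6. It lies at chr2:119897228-119969581 on the plus strand. Its level was 108 and 74.8 TPM in the controls and 37.3, 29.2 and 37.9 TPM in irradiated cells. All irradiated libraries were lower, with no overlap in TPM or CPM. The log2 fold change was −0.99 (SE 0.17, 95% confidence interval −1.39 to −0.60), with adjusted p = 0.00962 in edgeR, the clearest change of the 10 genes by p. Its transcripts are among the longest, however, and genes of similar length had a median of −0.78. The value was −0.38 with the length offset (95% confidence interval −0.68 to −0.09, adjusted p = 0.0942 with edgeR), and without control replicate 2 the adjusted p of edgeR was 0.0601.

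The main coding transcript of Mga, Mga-201 (11982 bases), had a mean of 27.2 TPM in the controls and 13.9 TPM in irradiated cells. The coding transcripts together gave 39.8% and 47.8% of the gene's TPM in the controls and 43.0%, 41.5% and 47.9% in irradiated cells, so the share overlapped between groups while the level did not.

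The MXD genes and Mnt, the remaining antagonists, did not pass the test. Mxd4, at chr5:34173883-34187720, had 55.2 and 40.0 TPM in the controls and 53.2, 50.7 and 61.3 TPM in irradiated cells, groups that overlapped. In CPM, at 99.8 and 77.1 against 114, 120 and 123, they did not. Its log2 fold change was 0.43 (95% confidence interval 0.06 to 0.80, adjusted p = 0.0791 with edgeR), and with the length offset 0.68 (adjusted p = 0.0352 with edgeR). Mxi1, at chr19:53310518-53375810, had 38.9 and 39.9 TPM against 49.4, 34.8 and 37.0 TPM, groups that overlapped. In CPM, at 102 and 102 against 157, 117 and 112, they did not. Mxi1 showed 0.33 (95% confidence interval −0.08 to 0.74, adjusted p = 0.203) and 0.87 with the length offset (adjusted p = 0.0392), both from edgeR. Genes as long as Mxd4 had a median of −0.25 and those as long as Mxi1 −0.40. The estimates held 3 of the 9 transcripts annotated for Mxi1.

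Mxd3, a member tied to S phase, lies at chr13:55325168-55329823 and had 27.8 and 56.3 TPM in the controls and 52.2, 51.4 and 39.3 TPM in irradiated cells. As for Mycn in TPM, control replicate 2 was the lowest library and control replicate 3 lay with or above the irradiated ones. The log2 fold change was 0.44 (95% confidence interval −0.22 to 1.11, adjusted p = 0.285 with edgeR). It was 1.01 without control replicate 3 (adjusted p = 0.0277 with edgeR) and 0.06 without control replicate 2. Genes of similar length had a median of 0.55, above the value of Mxd3 itself, and with the length offset it had 0.0144 (adjusted p = 0.973 with edgeR). Mnt, the broadly expressed antagonist, lies at chr11:74830920-74845725 and had 32.2 and 32.5 TPM against 22.3, 17.9 and 25.8 TPM. These groups did not overlap in TPM, but in CPM they did, and its log2 fold change was −0.03 (95% confidence interval −0.36 to 0.30, adjusted p = 0.899 with edgeR). For its length the median was −0.25, and the length offset gave 0.30 (adjusted p = 0.169 with edgeR).

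Summed over Mga, Mnt, Mxd1, Mxd3, Mxd4 and Mxi1, the antagonists had 269 and 259 TPM in the controls and 225, 194 and 213 TPM in irradiated cells. All irradiated libraries were lower. The log2 ratio was −0.33 (pooled SD 0.09), but without Mga it was 0.03, and on TMM-scaled reads per kilobase of effective length the sum gave −0.03. Mga made up 40.1% and 28.9% of the antagonist TPM in the controls and 16.6%, 15.1% and 17.8% in irradiated cells. The ratio of MYC family TPM to antagonist TPM was 13.3 and 14.9 in the controls and 21.6, 21.7 and 23.8 in irradiated cells, again without overlap. Both terms move with the values already given for Mycl and Mga, and no test was run on the ratio.

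Across the 10 genes, scaled reads (CPM) of the 2 groups did not overlap for 6 that lay higher and 1 that lay lower in irradiated cells, where 30.1% and 29.3% of all genes did the same.

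Mlx lies at chr11:101087277-101092207 on the plus strand. Its level was 29.0 and 31.1 TPM in the controls and 42.7, 42.6 and 41.8 TPM in irradiated cells. In TPM the 3 irradiated libraries lay close together and above both controls. In CPM, at 16.1 and 20.9 against 31.0, 38.6 and 26.6, they also lay above both controls but were more spread. Coding transcripts gave 54.7% and 76.2% of the gene's TPM in the controls and 61.3%, 85.0% and 53.7% in irradiated cells. This share varied between libraries and overlapped between groups, so the close TPM values of the gene do not describe its coding transcripts alone. Mlx changed by 0.79 on the log2 scale (SE 0.22, 95% confidence interval 0.29 to 1.29, adjusted p = 0.0338 with edgeR), where genes of similar length had a median of 0.41. It was 0.37 with the length offset (adjusted p = 0.159), with limma on log2 TPM 0.49 (adjusted p = 0.0648), and leaving out control replicate 2 or irradiated replicate 1 or 2 gave an adjusted p of 0.0706 to 0.171 in edgeR. Mlx shares 385 exon bases with Psmc3ip on the opposite strand, which had 383 and 392 reads against 595, 560 and 528. The strand setting of the libraries is not given in the sources used here, so the reads of both genes in that stretch cannot be told apart. Likewise Mxd3 shares 105 bases with Prelid1 (3889 to 6606 reads), Mxi1 shares 194 with Gm10197 (0 to 4 reads), and Mxd4 shares 514 with an opposite-strand gene that was not analysed here.

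Mlxip and Mlxipl, the glucose-sensing partners of MLX, lay at lower levels than Mlx. Mlxip, which encodes MondoA, had 18.2 and 19.3 TPM in the controls and 6.67, 8.82 and 9.34 TPM in irradiated cells. All irradiated libraries were lower, with a log2 fold change of −0.75 (SE 0.17, adjusted p = 0.0196 with edgeR). As one of the long genes, with a median of −0.78 for its length, it had −0.06 with the offset (adjusted p = 0.779 with edgeR). Mlxipl, which encodes ChREBP, had 6.37 and 13.8 against 8.13, 6.89 and 6.36 TPM (log2 fold change −0.59, adjusted p = 0.124 with edgeR), with a median of 0.28 for its length and −0.76 with the offset (adjusted p = 0.0733 with edgeR). Mxd1 had 7.14 and 15.5 against 10.6, 9.52 and 11.9 TPM (0.31, adjusted p = 0.420 with edgeR), and without control replicate 3 it was called higher (0.88, adjusted p = 0.0218 with edgeR). The median for its length was −0.40, and the offset gave 0.72 (adjusted p = 0.130 with edgeR).

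The list of MondoA and MLX targets held 2 genes, and both were called higher, with and without the length offset, where 12.7% and 4.25% of all genes were. Neither was called with limma on log2 TPM or without control replicate 2, and 1 was without control replicate 3 or irradiated replicate 1 or 2. Txnip, an arrestin-like inhibitor of glucose uptake and a standard readout of MondoA, had 44.9 and 64.0 TPM in the controls and 125, 74.0 and 72.7 TPM in irradiated cells, and all irradiated libraries lay above both controls. Its log2 fold change was 1.16 (SE 0.26, adjusted p = 0.0171 with edgeR). Arrdc4, its close relative, had 0.90 (SE 0.24, adjusted p = 0.0314 with edgeR).

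**Figure D5:**
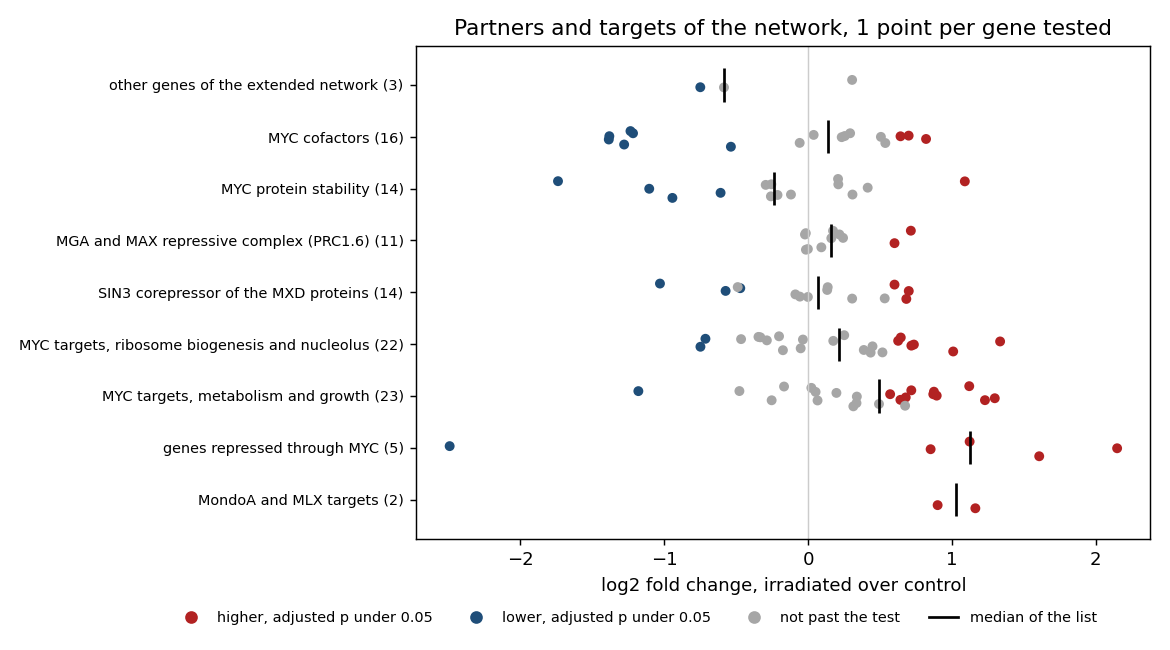
log2 fold change, irradiated over control, of each tested gene in 9 lists of network partners and targets, with the number tested in parentheses. Red points were called higher and blue lower by edgeR at an adjusted p under 0.05, grey points were not, and black bars give list medians, from −0.59 for the extended network to 1.12 for genes repressed through MYC.

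The wider network was described by 9 lists holding 109 distinct genes, of which 108 could be tested. edgeR called 30 of them higher (27.8%) and 18 lower (16.7%), beside 12.7% and 13% of all genes. These counts were 13 and 2 with the length offset, under which 4.25% of all genes were called higher and 3.64% lower. The same shares stand beside the offset counts of each list below.

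Known targets of MYC in metabolism and growth formed the longest list. Of 23 tested, 10 were higher, 1 was lower and 12 did not pass, with a median log2 fold change of 0.49, beside 12.7% higher and 13% lower of all genes. Ldha, lactate dehydrogenase A, had 927 and 1015 TPM in the controls and 2074, 1791 and 1907 TPM in irradiated cells (log2 fold change 1.30, SE 0.16, adjusted p = 0.00825 with edgeR). Pkm, pyruvate kinase and the most abundant gene of the list, had 0.68 (adjusted p = 0.0208 with edgeR) and Nme2, a nucleoside diphosphate kinase, 1.23 (adjusted p = 0.0120 with edgeR). Cad, which begins pyrimidine synthesis and has a long transcript, was lower at −1.18 (adjusted p = 0.0115 with edgeR). The length offset left 5 genes higher and 0 lower, with a median of 0.22, and leaving out control replicate 2 left 2 and 0.

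MYC targets of the nucleolus and of ribosome production were divided. Of 22 tested, 6 were higher, 2 were lower and 14 did not pass, beside 12.7% higher and 13% lower of all genes, and the median was 0.21. Nop16 (1.33, adjusted p = 0.0117) and Nhp2 (1.01, adjusted p = 0.0111), small proteins of ribosome assembly and of pseudouridylation complexes, were higher in edgeR. Ncl, nucleolin, went from 857 and 697 TPM to 439, 311 and 474 TPM (−0.75, adjusted p = 0.0310 with edgeR), and Rrp12 was also lower (−0.71, adjusted p = 0.0198 with edgeR). Npm1, nucleophosmin, the most abundant gene of the list, had 0.43 (adjusted p = 0.0655 with edgeR). The length offset left 1 gene higher and 0 lower, and without control replicate 2 none was called.

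Genes that MYC is known to repress all passed the test, 4 higher and 1 lower of 5, beside 12.7% and 13% of all genes. Gadd45a had 32.1 and 56.9 TPM in the controls and 157, 90.7 and 70.8 TPM in irradiated cells (log2 fold change 1.61, SE 0.38, adjusted p = 0.0200 with edgeR). Ndrg2 rose by 2.15 (adjusted p = 0.00992 with edgeR) from 1.38 to 6.14 mean CPM. In TPM the groups of Ndrg2 overlapped, at 1.16 and 6.60 in the controls against 8.27, 3.98 and 8.26 in irradiated cells. The other two, Cdkn1a (1.12, adjusted p = 0.0192) and Ndrg1 (0.85, adjusted p = 0.0150), were named after their values were seen. Gadd45a and Cdkn1a are known also as genes of the response to DNA damage. Cdkn2b, which encodes the cell cycle inhibitor p15, fell by 2.49 on the log2 scale (SE 0.74, adjusted p = 0.0414 with edgeR), from 2.48 to 0.440 mean CPM. With the length offset 3 of the 5 were higher and 0 lower in edgeR, while Gadd45a had 1.11 (adjusted p = 0.0759) and Cdkn2b −2.99 (adjusted p = 0.0501). None of the list was higher with limma on log2 TPM, and none was called in either direction without control replicate 2.

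Cofactors that MYC recruits were called in both directions, 3 higher and 6 lower of 16, with a median of 0.14, beside 12.7% and 13% of all genes. The lower ones included Trrap, the scaffold of histone acetyltransferase complexes (−1.39, adjusted p = 0.00954), and Bptf, of the NURF remodeller (−1.38, adjusted p = 0.00919), both by edgeR. Trrap went from 77.6 and 77.3 TPM in the controls to 22.1, 21.4 and 31.2 TPM in irradiated cells, with no overlap. Cdk9, a kinase of transcriptional elongation (0.82, adjusted p = 0.0139), and the ATPase gene Ruvbl2 (0.70, adjusted p = 0.0276) were higher in edgeR. The length offset left 0 genes of this list higher and 1 lower, and Trrap had −0.57 (adjusted p = 0.0722 with edgeR). Without control replicate 2, 0 were higher and 3 lower, and with limma on log2 TPM 0 were higher.

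Genes that act on the stability of MYC proteins had a median of −0.23, with 1 of 14 higher and 4 lower, beside 12.7% and 13% of all genes. Huwe1, a very long ubiquitin ligase gene, went from 301 and 167 TPM in the controls to 48.5, 40.6 and 65.5 TPM in irradiated cells (−1.74, adjusted p = 0.00919 with edgeR). Gsk3b, a kinase that marks MYC for degradation, was lower at −1.10 (adjusted p = 0.0144 with edgeR). Stub1, a ubiquitin ligase and the most abundant of the list, had 0.41 (adjusted p = 0.0667 with edgeR). With the length offset 1 gene of the list was higher and 0 lower, and Huwe1 had −0.73 (adjusted p = 0.0553 with edgeR). Without control replicate 2, 0 were higher and 1 lower.

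In the PRC1.6 complex that MGA nucleates with MAX, 2 of 11 genes were higher and 0 lower by edgeR, with a median of 0.16, beside 12.7% and 13% of all genes. Ring1, a ubiquitin ligase for histone H2A (0.71, adjusted p = 0.0486), and Hdac1, a histone deacetylase (0.60, adjusted p = 0.0328), were the higher ones, while Cbx3 had −0.02. In TPM the mean of Ring1 was lower in irradiated cells, at 36.2 against 44.6, and its groups overlapped. Among 14 genes of the SIN3 corepressor that MXD proteins recruit, 3 were higher and 3 lower, beside the same 12.7% and 13% of all genes. The median was 0.07. Sap30 (0.70, adjusted p = 0.0255), Rbbp4 (0.68, adjusted p = 0.0289) and Hdac1 were higher, and Ncor1 (−1.03, adjusted p = 0.0131) and Arid4b (−0.57, adjusted p = 0.0283) were among the lower, all by edgeR. Hdac2, the most abundant, had −0.00. With the length offset no gene of PRC1.6 was called, and in the SIN3 list Rbbp4 was higher and Ncor1 lower. Without control replicate 2, no gene of either list was called.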

How the data were processed

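Reads of the 5 bulk libraries had been quantified by the authors with Salmon 0.8.2 against mm10, per the labels. The annotation release is not given in the sources used here. The deposited values are expected counts (estimated reads per transcript, not scaled) and TPM. Here 112762 of 113116 transcripts (99.687%) were matched to GENCODE M21 (GRCm38), summed to 35056 genes and, for counts, rounded. The submitters' processing notes also list DESeq2 1.22.2. Irradiated libraries were compared with controls in edgeR 4.0.16 (R 4.3.3) (quasi-likelihood test, unblocked) after filterByExpr and TMM, with p-values adjusted by Benjamini-Hochberg. The common dispersion was 0.0542. Alternatives used DESeq2 1.42.0, limma 3.58.1 on log2(TPM + 0.5), other filters and scalings, spline offsets with 5 degrees of freedom, a replicate block and each library left out. The 10 genes and all lists were chosen with earlier results of these data known. Named were the 10 genes, the extended network, from each list the most abundant gene and up to 2 called genes per direction of largest change without overlap, and the 3 genes nearest to each MYC family gene. Some genes within this rule are not reported here. Intervals cover 95%. Promoters were RefSeq's.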

Additional observations from a re-analysis of the deposited data

How the results depend on the processing

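Of the 10 network genes, 3 were called higher and 1 lower. The count of higher calls was 5 with no filter on low counts, 0 with limma on log2 TPM, 0 with a replicate block, 0 with that block and the length offset, and 0 to 5 on leaving out 1 library at a time. The count of lower calls was 0 with the length offset, 0 with the replicate block and the length offset, and 0 to 1 on leaving out 1 library. Over all genes, 1786 of 14106 were called higher in the main fit and 2520 of 20526 with no filter. Limma called 717 of 14106 higher, the replicate block 602, and the block with the length offset 12. Of the list genes, 30 were called higher and 18 lower. Higher calls numbered 7 with limma, 13 with the length offset, 7 with the replicate block, 0 with block and length offset, and 2 to 30 with 1 library left out. Lower calls numbered 2, 7 and 0 with the length offset, the block and both, and 4 to 20 with 1 library left out. Of the libraries left out, control replicate 2 gave the lowest counts; 1 control then remained, assumed to vary like the irradiated libraries, and edgeR called 95 genes higher and 175 lower. The log2 ratio of the summed MYC family was 0.63 on TMM-scaled reads per kilobase, and that of the antagonists was −0.0348 on that scale. Without Mga the antagonists gave 0.0258 in TPM and 0.32 on TMM-scaled reads per kilobase.

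Some values changed sign. Myc was 0.37 without control replicate 2 and 0.24 without irradiated replicate 3, in a range of −0.47 to 0.37 with 1 library left out. Mnt was 0.0166 with no filter, 0.0273 with upper-quartile scaling, 0.30 with the length offset, 0.22 with block and length offset, 0.0112 without control replicate 2 and 0.0246 without irradiated replicate 2 (range −0.0927 to 0.0246 with 1 library left out). Mxd3 was −0.0336 and Mlxip 0.001 with block and length offset, and Mxd1 was −0.0783 without control replicate 2 and 0.88 without control replicate 3 (adjusted p = 0.0218 with edgeR), the ends of its range. The causes were not tested.

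Replicate numbers 2 and 3 occur in both groups, but nothing ties equal numbers to a shared culture, and deviations of equal numbers correlated at −0.196 across genes. The replicate block left 602 genes higher and 494 lower, and 12 and 19 with the length offset. A crossed pairing, chosen after seeing the data, gave 3026 and 2670, with 6 network genes higher. Myc had 57 to 146 reads per library, the fewest of the 10 genes.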

Other observations

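The genes whose profile over the 5 libraries lay nearest to each MYC family gene were found by the Euclidean distance between centred log2 CPM values. Nearest to Mycl were Tmem38a (distance 0.0677), Eef1g (0.0802) and Cxxc5 (0.0978), where the median protein-coding gene lay at 1.02. Eef1g had 561 and 538 TPM in the controls and 720, 613 and 725 TPM in irradiated cells, and Cxxc5 had 51.0 and 55.7 against 72.9, 65.4 and 71.7 TPM. Nearest to Mycn were Pak1ip1 (0.102), Irf1 (0.107) and Srsf9 (0.121), with a median of 1.42. Pak1ip1 had 24.2 and 55.7 TPM in the controls and 57.5, 61.2 and 50.3 TPM in irradiated cells, and like Mycn it was lowest in control replicate 2. Nearest to Myc, at larger distances, were Ism2 (0.339), Gm11733 (0.343) and Cdh8 (0.386), all at low levels. These distances rest on 5 libraries that share 1 cell line and describe likeness only.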
